A study of Mus musculus with 3 samples.

Results

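The alpha and beta tubulin genes expressed in embryonic dorsal root ganglion (DRG) were followed as a family: 4 alpha genes (Tuba1a, Tuba1b, Tuba1c, Tuba4a) and 6 beta genes (Tubb2a, Tubb2b, Tubb3, Tubb4a, Tubb4b, Tubb5). They were taken by gene symbol from the 41388 genes of each deposited count table, and all 10 were found in every table. RNA sequencing had been done on cells sorted for a green fluorescent reporter of Ret, the GDNF family receptor tyrosine kinase, from mouse embryos of C57BL/6 background at 12.5 days post coitum. Library B was made from 17 embryos (10 male and 7 female; 340 ganglia), library C from 15 embryos (300 ganglia) and library D from 3 embryos (60 ganglia). All ganglia came from spinal levels T11 to S1. The genotype field reads Tg(Ret-EGFP)SJ/, whereas the design text speaks of heterozygotes with EGFP placed in the Ret locus, and it was not settled here which applies. There was no reporter-negative or mutant group, so the 3 pools form a single group in which n is 3 pools of animals.

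Microtubules are hollow polymers of alpha and beta tubulin, which join as a heterodimer before they are added to the growing end. Each subunit is encoded by several genes, the isotypes, whose proteins differ mainly in an acidic tail at the carboxyl terminus. That tail carries most of the enzymatic marks of the microtubule surface. Neurons rely on a mixture of isotypes to build axons, and Tubb3 is a standard marker of the neuronal lineage.

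Total counts were 18072199, 11666241 and 20966139 in libraries B, C and D, with 13157 to 14759 genes at 1 TPM or more (reads per gene length, scaled to the same sum in each library). A count of 0 allows up to 0.143 to 0.257 CPM (counts scaled by library total) at these depths, for counting error only. All 10 markers of DRG sensory neurons were detected in every library. They summed to 13337, 14091 and 10869 TPM in B, C and D, of which Stmn2 alone gave 9309, 8844 and 6165 TPM. The median of the 10 markers was 274, 163 and 416 TPM, highest in D. The 7 markers of glia and Schwann cell precursors were also all detected, at 3040, 1500 and 4753 TPM. The 8 markers of dividing cells, all detected, summed to 256, 150 and 503 TPM. Of 5 erythroid markers 4 were detected in every library, with sums of 2740, 1374 and 395 TPM. Mesenchymal markers (3 of 5 detected) summed to 17.7 to 81.9 TPM, macrophage markers (3 of 5) to 26.4 to 36.4 TPM and endothelial markers (0 of 4) to 0.984 to 3.97 TPM.

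The ends of coding sequences are shown for 8 of the isotypes because they encode the tails by which the isotypes differ and the final residue, which is a target of tyrosine removal in alpha tubulins. The last 60 coding bases, stop codon included, were read 5′ to 3′ in the sense direction from GENCODE M21 transcripts (build GRCm38), with the last codon before the stop in capitals.
Tuba1c: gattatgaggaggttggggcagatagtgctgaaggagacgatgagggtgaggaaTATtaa
Tuba4a: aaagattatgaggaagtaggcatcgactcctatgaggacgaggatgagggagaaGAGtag
Tubb2a: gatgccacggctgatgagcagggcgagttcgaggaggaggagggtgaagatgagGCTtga
Tubb2b: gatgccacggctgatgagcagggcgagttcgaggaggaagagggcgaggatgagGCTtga
Tubb3: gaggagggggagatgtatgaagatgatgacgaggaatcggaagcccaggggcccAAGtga
Tubb4a: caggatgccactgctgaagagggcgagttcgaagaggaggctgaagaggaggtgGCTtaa
Tubb4b: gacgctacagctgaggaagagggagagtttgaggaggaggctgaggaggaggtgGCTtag
Tubb5: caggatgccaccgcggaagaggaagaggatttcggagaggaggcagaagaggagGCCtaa
Tuba1c ends in a tyrosine codon, TAT. Tuba4a ends in GAG, a glutamate codon, so its protein is made without the tyrosine. Among the beta genes Tubb3 alone ends in a lysine codon, AAG, and the other 5 end in alanine codons.

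The starts of the same coding sequences are shown because the ribosome-associated factor TTC5 reads the first residues of nascent tubulin when cells lower tubulin mRNA. The first 12 bases are given with the fourth codon in capitals.
Tuba1a: atgcgtgagTGC
Tuba4a: atgcgcgagTGC
Tubb3: atgagggagATC
Tubb5: atgagggaaATC
The fourth codon was TGC (cysteine) in all 4 alpha genes and ATC (isoleucine) in all 6 beta genes.

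How far reads can tell the isotypes apart differed widely within the family. Over aligned coding bases, Tuba1a was 98.3% identical to Tuba1b and 97.1% identical to Tuba1c, and Tuba1b and Tuba1c were 97.9% identical. Tuba4a was 84.7% to 85.2% identical to each of these. Tubb2a and Tubb2b shared 96.5% of their coding bases, and every other beta pair lay between 81.2% and 84.5%. Every window of 50 consecutive bases of the Tubb3 transcript was absent from all other genes' transcripts, and 99.8% of Tubb4a windows and 99.9% of Tubb5 windows were likewise their own. The shares were 24.5% for Tuba1a, 16.9% for Tuba1b, 39.0% for Tuba1c, 51.2% for Tuba4a, 50.4% for Tubb2a, 60.7% for Tubb2b and 44.5% for Tubb4b. Windows of 100 bases raised the share to 34.2% for Tuba1a and 27.0% for Tuba1b. The sources used here give neither the read length nor the treatment of reads that match several places. The split of reads among Tuba1a, Tuba1b, Tuba1c and their pseudogenes, between Tubb2a and Tubb2b, and between Tubb4b and its pseudogenes is therefore uncertain.

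**Figure D1:**
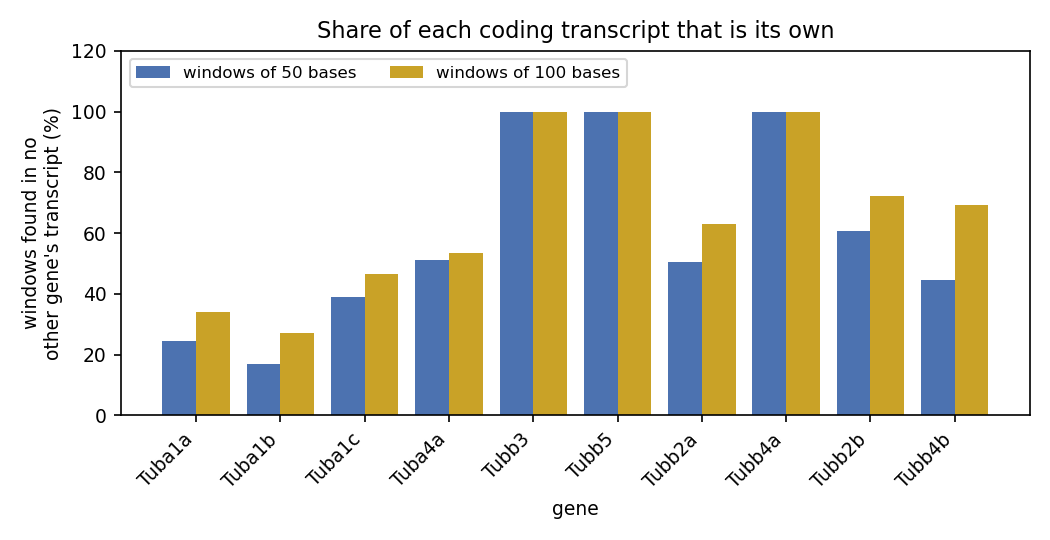
Share (%) of the windows of 50 or 100 bases along each isotype's GENCODE M21 coding transcript that occur in the transcript of no other gene. Tubb3, Tubb4a and Tubb5 stand near 100%, whereas Tuba1b (16.9%) and Tuba1a (24.5%) are lowest for windows of 50 bases.

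The alpha tubulin message was almost wholly Tuba1a. This gene, the main alpha tubulin of young postmitotic neurons, lies on the minus strand at chr15:98949841-98953551 (GRCm38; ENSMUSG00000072235), with 1647 exonic bases. It was counted 246796, 109347 and 143018 times in libraries B, C and D. These counts correspond to 16615, 11071 and 11266 TPM, or 12984 ± 3146 TPM (SD, n = 3). Library B was highest and C and D were close to each other. By TPM it ranked 5th, 7th and 4th of all genes in B, C and D.

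Tuba1b, a widely expressed alpha tubulin, lies 15.3 kb from Tuba1a at chr15:98931425-98934565, also on the minus strand. Its level was 383 TPM in B, 210 TPM in C and 275 TPM in D, or 289 ± 87.5 TPM. Tuba1c, a close relative on the plus strand at chr15:99029891-99038105, 76.3 kb from Tuba1a, stood at 57.6, 24.2 and 58.6 TPM. For Tuba1c, libraries B and D were alike and C was lowest. Tuba4a, known from platelets and mature nervous tissue, lies on the minus strand at chr1:75214228-75219865. It was at 29.6, 14.7 and 4.73 TPM in B, C and D, a spread far wider than that of the other alpha genes. Of its 3701 exonic bases, 1379 (37.3%) are shared with Stk16 on the opposite strand, and the library kit does not mark strand. How reads in the shared bases were counted is not known. Part of this count may belong to Stk16, or reads of Tuba4a there may have gone uncounted.

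As shares of the alpha sum, Tuba1a held 97.2%, 97.8% and 97.1% in B, C and D, or 97.4 ± 0.376%. Tuba1b held 2.24%, 1.85% and 2.37%, with a mean of 2.15 ± 0.268%. Tuba1c held 0.337%, 0.214% and 0.505%, and Tuba4a 0.173%, 0.130% and 0.0408%. With own 50-base windows as length, the mean level of Tuba1a was 47732 TPM and the share of Tuba1b 3.62%. All genes other than the tubulin members kept their deposited length, so that level cannot be set beside the TPM of other genes. Tuba1a exceeded Tuba1b by 5.44, 5.72 and 5.36 on the log2 scale in B, C and D, a mean of 5.51 ± 0.19 or 45.4-fold. The gap shrank to 4.74 on the log2 scale when each gene's length was replaced by the number of its own 50-base windows. Tuba1b exceeded Tuba1c by 2.69 ± 0.44 on the log2 scale. Tuba1c exceeded Tuba4a by 0.96 in B, 0.72 in C and 3.63 in D, so the size of that last step rested on library D.

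Tubb3 was the most abundant beta tubulin in every library. It encodes the neuronal class III isotype and lies on the plus strand at chr8:123411424-123422015 (ENSMUSG00000062380), with 1868 exonic bases. Its counts were 301580, 108846 and 133397, equal to 17901, 9716 and 9265 TPM in B, C and D, or 12294 ± 4861 TPM. Library B stood well above C and D, which were nearly equal. Its rank by TPM was 4, 8 and 5 in B, C and D. No 50-base window of Tubb3 is shared with another gene's transcript, unlike Tuba1a.

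Tubb5, the class I beta tubulin abundant in dividing cells, came next. It lies on the minus strand at chr17:35833921-35838306 and was at 4571 TPM in B, 2785 TPM in C and 5340 TPM in D, or 4232 ± 1311 TPM. Unlike Tubb3, it was highest in library D. Tubb3 exceeded Tubb5 by 1.97, 1.80 and 0.79 on the log2 scale in B, C and D, with a mean of 1.52 ± 0.64 or 2.87-fold. The order by TPM was the same in all 3 libraries, but the step was smallest in D. By counts without length the order turned in D, where Tubb5 had 136941 counts and Tubb3 133397.

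Tubb2a and Tubb2b, a pair of class II genes of the developing nervous system, lie 49.0 kb apart on the minus strand, at chr13:34074301-34078008 and chr13:34127008-34130354. Tubb2a was at 1911, 1269 and 887 TPM in B, C and D, highest in B and lowest in D. Tubb2b was at 1615, 830 and 861 TPM, with B high and the other libraries alike. Tubb4a, a class IV isotype of brain, lies on the minus strand at chr17:57080066-57087782 and was at 1622, 894 and 1316 TPM. Tubb4b, an isotype found in many tissues and in cilia, lies on the minus strand at chr2:25222160-25224702 and was lowest of the 6, at 413, 301 and 293 TPM. It shares 121 exonic bases (5.80%) with Fam166a on the opposite strand.

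**Figure D2:**
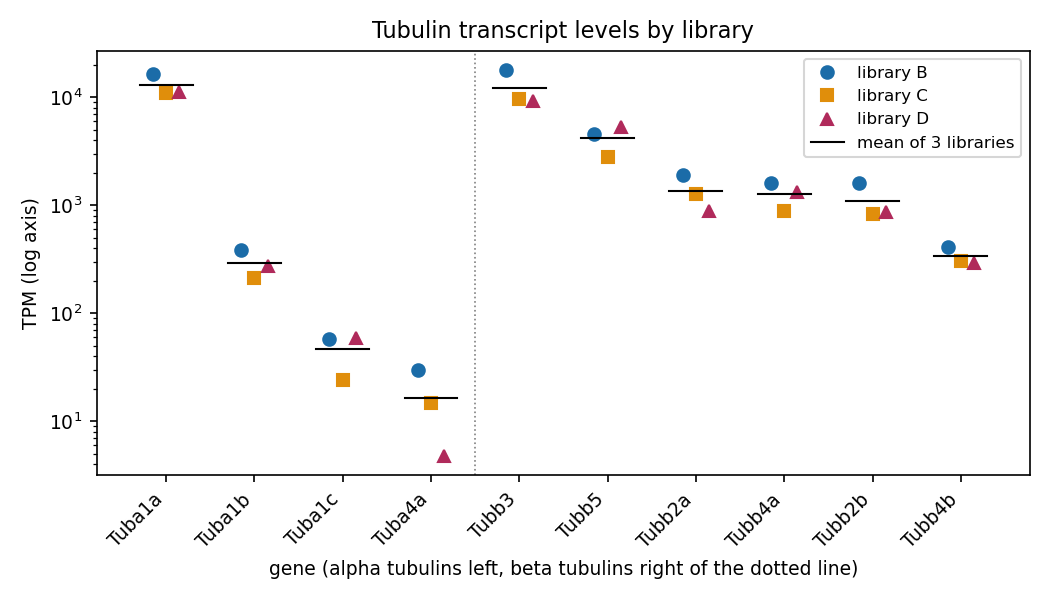
TPM (log axis) of the 10 tubulin genes in libraries B, C and D, as points, with the mean of the 3 libraries as a bar. Tuba1a (12984 TPM) and Tubb3 (12294 TPM) stand above the others, and Tuba4a (16.4 TPM) is lowest, with its library D point far below the other points of that gene.

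By share of the beta sum, Tubb3 held 63.9%, 61.5% and 51.6% in B, C and D, or 59.0 ± 6.52%. Tubb5 held 16.3%, 17.6% and 29.7%, with a mean of 21.2 ± 7.40%. The makeup of B and C was close for both genes, and D had less Tubb3 and more Tubb5. Without library D the means were 62.7 ± 1.66% for Tubb3 and 17.0 ± 0.938% for Tubb5. In percentage points the remaining genes varied less: Tubb2a averaged 6.60 ± 1.56%, Tubb4a 6.26 ± 0.928%, Tubb2b 5.27 ± 0.483% and Tubb4b 1.67 ± 0.219%. Relative to their means, Tubb2a, Tubb4a and Tubb4b varied more than Tubb3. By counts without length, Tubb3 held 50.6% and Tubb5, whose deposited length is long, 31.9%. With own 50-base windows as length, the share of Tubb2a was 11.03% and that of Tubb4b 4.20%. Markers of glia and of dividing cells also summed highest in D (4753 and 503 TPM), but not every marker did so. Without Ednrb the glial markers summed to 2665, 1246 and 2614 TPM in B, C and D, and Mki67 (3.90, 1.87 and 2.31 TPM) and Cenpf (6.67, 1.95 and 2.40 TPM) were highest in B. The part of these cells in the shift was not tested. In pooled cells, fewer cells of a type and less RNA per cell cannot be told apart.

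**Figure D3:**
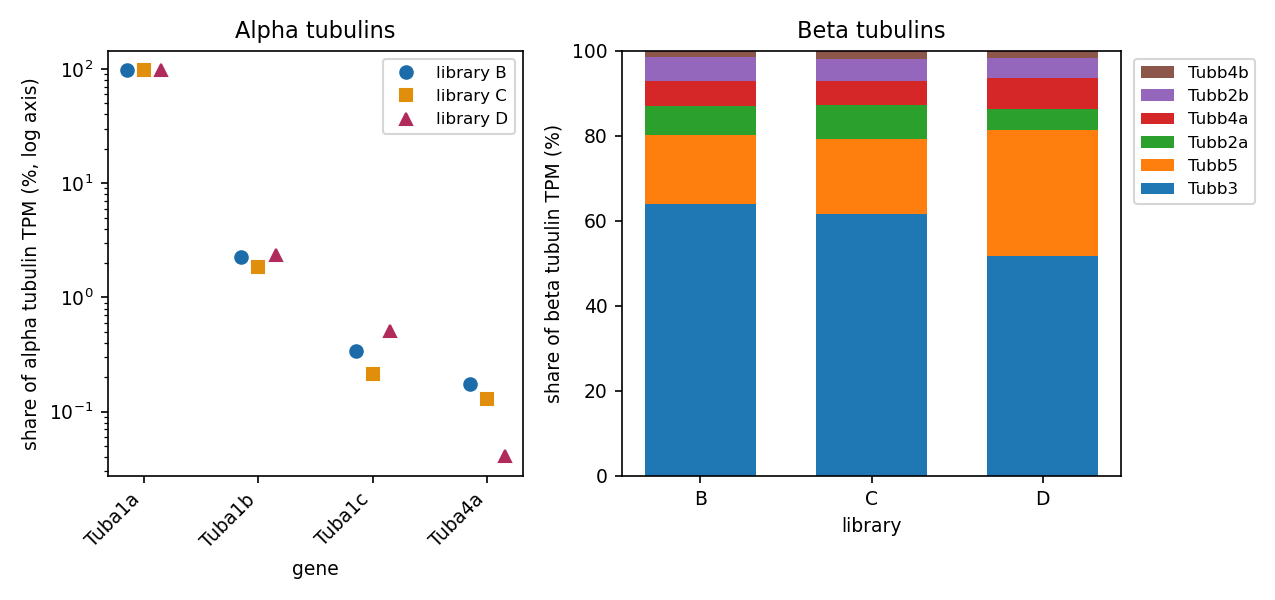
Share (%) of the alpha tubulin sum held by each alpha gene (left, points per library, log axis) and of the beta tubulin sum held by each beta gene (right, stacked bars per library). Tuba1a holds 97.1% to 97.8% of the alpha sum, and the Tubb3 bar is shorter and the Tubb5 bar longer in library D (51.6% and 29.7%) than in B and C.

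The order of levels within each family was read from 8 pairs of neighbours. In 6 of them every library gave the same order with a mean log2 ratio above its SD. Tubb2a and Tubb4a did not differ beyond their spread (log2 ratios of 0.24, 0.51 and −0.57, mean 0.06 ± 0.56), nor did Tubb4a and Tubb2b (0.01, 0.11 and 0.61, mean 0.24 ± 0.32). Tubb5 exceeded Tubb2a by 1.66 ± 0.81 on the log2 scale, and Tubb2b exceeded Tubb4b by 1.66 ± 0.27. An exact two-sided sign-flip test over 3 libraries cannot give a p below 0.25. Adjusted over the 8 pairs it was 0.286 for 7 pairs and 1 for Tubb2a and Tubb4a, so no step passed 0.05 and none could.

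The alpha sum was 17085, 11320 and 11604 TPM in B, C and D, or 13336 ± 3250 TPM. The beta sum was 28033, 15795 and 17961 TPM, or 20597 ± 6530 TPM. Both families together took 4.37%, 2.69% and 2.24% of all counts. By these values alpha message was below beta message in every library, with log2 ratios of −0.71, −0.48 and −0.63 and a mean of −0.61 ± 0.12 (exact two-sided sign-flip p = 0.25, the smallest possible). This direction depended on how shared sequence is treated. With the number of each gene's own 50-base windows in place of its length, alpha exceeded beta, at a log2 ratio of 1.08 ± 0.10. Which family was more abundant was thus not determined. Tuba1a and Tubb3 had similar TPM, with log2 ratios of −0.11, 0.19 and 0.28.

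The spread of the tubulins across libraries was set beside that of other genes of high level. Among 1092 genes at 100 TPM or more in every library, the SD of log2 TPM had a median of 0.36, with quartiles of 0.23 and 0.56. Of the 8 tubulin genes in that set, Tubb4b (0.28) and Tuba1a (0.33) lay below the median. The other 6 lay between 0.43 and 0.55, inside the upper quartile bound. Tuba1c (0.73) and Tuba4a (1.32) were below 100 TPM and varied most. As a description over 3 libraries, the genes whose log2 TPM followed Tubb3 most closely among 1083 compared were Ckb (brain creatine kinase; root mean square difference 0.016), Ndufa8 (0.023) and mt-Tp (0.027), and 37 genes came within 0.1. For Tuba1b these were Rps27l (0.019), Mrpl22 (0.035) and Gas5 (0.040), with 20 genes within 0.1.

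Library D, made from only 3 embryos, was compared with the other libraries by edgeR's quasi-likelihood test on counts. No tubulin gene passed an adjusted p of 0.05, and none of the 15727 genes tested did (0%). With 1 lone library there is 1 residual degree of freedom, and the size of the pool cannot be told apart from any other property of library D. All 10 log2 differences were below 0, although those of Tuba1c and Tubb5 turned positive on average when counts were scaled by library total. Their median was −0.99, against −0.02 over all genes tested. At an unadjusted p under 0.05, 5 of the 10 were lower, against 8.22% of all genes, and 3046 genes differed in either direction. The largest difference was in Tuba4a, at −2.91 ± 0.67 on the log2 scale (approximate SE, edgeR adjusted p = 0.187), followed by Tubb2a at −1.54 ± 0.42 (adjusted p = 0.200) and Tubb3 at −1.26 ± 0.42 (adjusted p = 0.217). Tuba1a differed by −0.99 ± 0.35 (edgeR adjusted p = 0.229). Tubb5 (−0.15 ± 0.37) and Tuba1c (−0.17 ± 0.61) were closest to 0. Without the filter on low counts, edgeR called 3 of the 10 lower (Tuba4a, Tubb2a and Tubb3), against 2.55% of 23553 genes. DESeq2 called only Tuba4a (adjusted p = 0.00312), against 2.42% of genes called lower. Those calls were absent from the edgeR test with its filter.

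By size alone, with counts scaled by TMM (a scaling on the bulk of genes), library D was below both B and C in 8 of the 10 genes, against 37.3% of the 15977 genes at 1 TPM in any library. The exceptions were Tuba1c and Tubb5, which were lower in D than in B but higher than in C. Tubb4a also became higher in D than in C (by 0.07 on the log2 scale in place of −0.13) when counts were scaled by library total. That scaling moved the median of all genes from 0.10 to 0.30 and that of the tubulins from −0.92 to −0.73. Tuba4a and Tubb2a were past 2-fold below both libraries, 2 of 10 against a background of 11.5%. None was past 2-fold above both, against 16.5% of genes. Against B alone 7 of the 10 were past 2-fold lower (17.2% of genes), and against C alone 2 (22.7% of genes). By TPM, Tuba1c and Tubb5 were higher in D than in both B and C. Tuba1a (11071 in C, 11266 in D), Tuba1b (210, 275), Tubb2b (830, 861) and Tubb4a (894, 1316) were higher in D than in C by TPM. Only Tuba4a, Tubb2a, Tubb3 and Tubb4b were below both. Of these, only Tuba4a and Tubb2a were past 2-fold below B, and Tubb2a (887 TPM in D) was not past 2-fold below C (1269 TPM). The tubulin sum was highest in library B.

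Gene length moved with the D comparison. The median log2 difference of all tested genes went from −0.80 in the shortest of 4 equal length classes (median length 1269 bases) through −0.27 and 0.27 to 0.60 in the longest (median 7581 bases). Tuba1a, Tuba1b, Tuba1c, Tubb2a, Tubb2b and Tubb3 fall in the shortest class, Tubb4a, Tubb4b and Tubb5 in the next, and Tuba4a in the class above. The 5050 genes within the length range of the 10 tubulins (1584 to 3701 bases) had a median of −0.28 by the TMM-scaled values, against −0.92 for the tubulins. The part of length in the tubulin difference was not tested. Tuba4a was the exception to the pattern, being in a class of positive median yet the most negative. Erythroid markers ranked the libraries as Tuba4a did (2740, 1374 and 395 TPM in B, C and D), and their part was not tested.

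**Figure D4:**
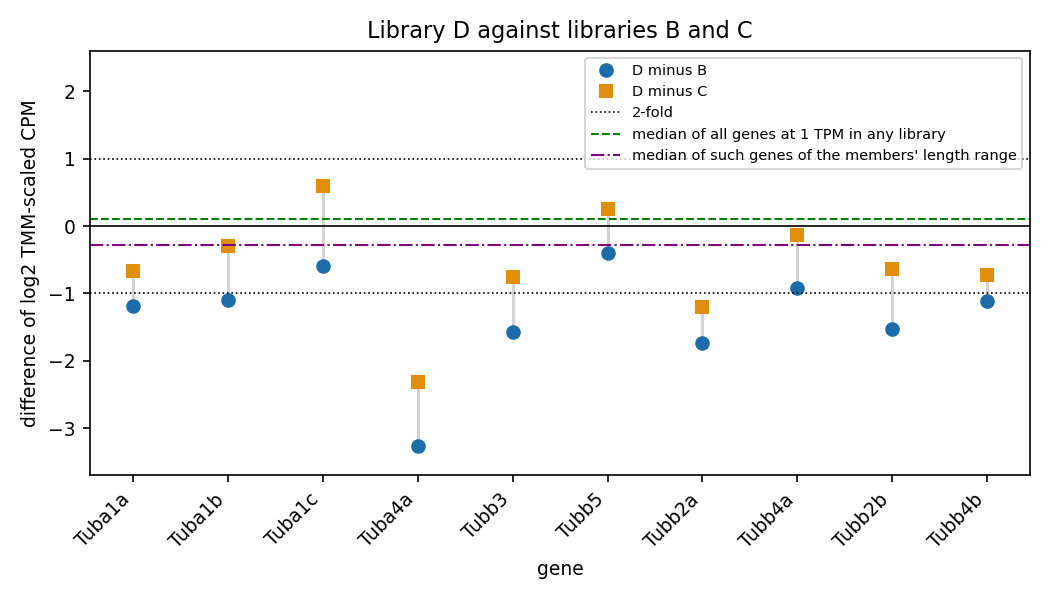
Difference of log2 TMM-scaled CPM between library D and library B (circles) or C (squares) for each tubulin gene. The dotted lines mark 2-fold, and the other lines give the median of all genes (0.10) and of genes anywhere within the tubulins' length range (−0.28). Tuba4a and Tubb2a have both points below the lower 2-fold line, and the points of Tuba1c and Tubb5 lie on both sides of 0.

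The other tubulin genes ranged from single counts to levels above those of Tuba1c and Tuba4a. Tubb6, a class V beta tubulin, was at 78.3, 60.2 and 134 TPM in B, C and D. Tubb1, the beta tubulin of platelets and megakaryocytes, was at 24.1, 5.46 and 2.68 TPM, with the libraries ranked as for Tuba4a. Tuba8 was at 2.64, 2.17 and 0.117 TPM, and 368 of its exonic bases are shared with Gm15856 on the opposite strand. Tuba3a had 2, 0 and 1 counts, Tuba3b 2, 0 and 0 counts and Tubal3 0, 0 and 1 count, all within the 3 counts that a count of 0 allows. Among tubulins outside the heterodimer, Tubg1, the gamma tubulin that seeds microtubules, was at 175, 92.9 and 138 TPM, and Tubg2 at 26.2, 27.0 and 12.4 TPM. Tubd1 and Tube1, the delta and epsilon tubulins of centrioles, averaged 23.3 ± 6.31 and 10.3 ± 5.28 TPM.

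The genes of the tubulin folding lists were all detected, at levels that differed between groups. All 8 subunits of the chaperonin CCT, which folds newly made tubulin, were detected, with sums of 5311, 5606 and 6828 TPM in B, C and D. Its highest subunits were Cct5 at 1327, 1147 and 1586 TPM and Cct7 at 1293, 1073 and 1242 TPM. All 6 prefoldin subunits, which hand tubulin to CCT, were detected. By mean the highest were Pfdn1 (644, 379 and 414 TPM) and Pfdn5 (598, 464 and 350.5 TPM), although Vbp1 was above both in D (420 TPM). All 7 genes listed as tubulin folding cofactors were detected as well, with median levels of 36.0, 167 and 37.9 TPM in B, C and D. Tbca, which holds beta tubulin, was at 841, 1012 and 816 TPM, and Tbcb, which holds alpha tubulin, at 920 (B), 874 (C) and 500.4 (D) TPM. Tbcc stood apart in library C, at 172 TPM against 9.45 in B and 9.57 in D; it was singled out after its values were seen.

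All 10 genes of the gamma-tubulin ring complex, the template for new microtubules, were detected. Besides Tubg1, Mzt2 had the highest mean, at 152, 50.9 and 89.7 TPM, although Mzt1 (55.4, 96.2 and 114 TPM) was above it in C and D. In the D comparison 6 of the 10 differed upward and 4 downward (median 1.09), and none passed an adjusted p of 0.05 with edgeR. The 6 upward genes are 3085 to 8568 bases long and the other 4 are 1236 to 2266 bases, and the part of length was not tested. The 8 CCT genes and the 6 prefoldin genes all had negative differences (medians −0.31 and −1.15), and 5 of 7 cofactors did (median −0.89). The median over all genes tested was −0.02, so lower and higher genes were about equally common. The prefoldin genes are 1077 to 2520 bases long, the CCT genes 1599 to 5030 and the 5 lower cofactors 503 to 4540. Medians by length class ran from −0.80 in the shortest to 0.60 in the longest, and the part of length was not tested here either. By TPM, which scales the libraries differently from the TMM used in this comparison, the CCT sum was instead highest in D (6828 TPM). Among its subunits only Cct4 (highest in C) and Cct7 (highest in B) were not highest in D by TPM. No gene of these lists passed.

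Enzymes that mark tubulin were mostly low, and they differed by the type of mark. For the removal and return of the tyrosine, 4 of 4 measured genes were detected. Svbp, the partner of the tyrosine-removing vasohibins, was at 330 (B), 339 (C) and 253 (D) TPM, and Vash2, a vasohibin, at 16.8, 19.5 and 41.0 TPM. Of 13 genes of the Ttll group, which holds the glutamate- and glycine-adding ligases, 6 were detected. Ttll1, a subunit of a neuronal polyglutamylase complex, led at 154, 134 and 134 TPM, followed by Ttll7, which modifies beta tubulin, at 30.8, 39.8 and 41.0 TPM. Ttll2, Ttll6, Ttll8, Ttll10 and Ttll13 stayed under 1 TPM in every library, and Ttll2 and Ttll8 had no counts. Of 6 glutamate-removing enzymes 2 were detected, Agtpbp1 at 5.55, 7.17 and 13.2 TPM and Agbl5 at 2.85, 3.17 and 5.83 TPM, and Agbl1 to Agbl4 were under 1 TPM in all. For acetylation, all 3 genes were detected: the acetyltransferase Atat1 at 142, 115 and 134 TPM, the deacetylase Sirt2 at 83.9, 77.0 and 69.1 TPM, and the third gene, Hdac6, at a lower level.

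The genes of tubulin mRNA autoregulation were detected, 3 of 3. Ttc5, which reads the nascent chain whose codons are shown above, was at 206, 108 and 262 TPM, lowest in library C. Scaper, its adaptor, was at 10.4, 8.05 and 13.1 TPM. In the D comparison 3 of 4 tyrosine-cycle genes were lower (median −1.11), 5 of 9 tested Ttll genes (median −0.49) and 2 of 4 glutamate-removing genes (median −0.02). So were 2 of 3 acetylation genes (median −0.64) and 2 of 3 autoregulation genes (median −0.19). The median over all genes tested was −0.02, so lower and higher genes were about equally common and these small counts lie near that background. Medians by length class ran from −0.80 to 0.60, and the part of length was not tested. No gene of these lists passed an adjusted p of 0.05.

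**Figure D5:**
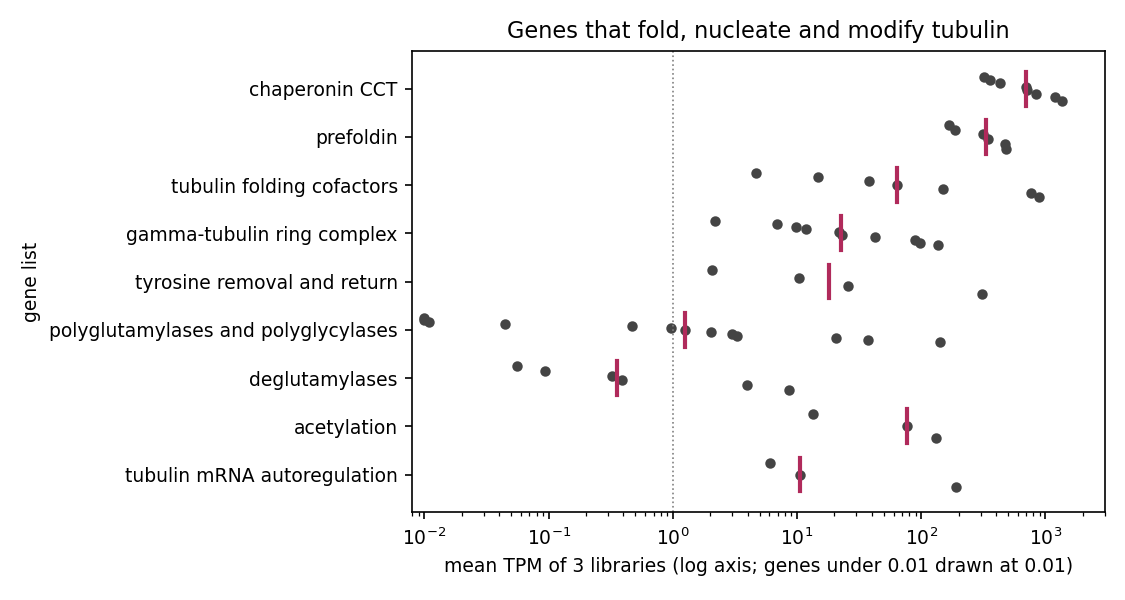
Mean TPM of 3 libraries (log axis) for each gene of the lists that fold, nucleate and modify tubulin, with points as genes, bars as list medians and the dotted line at 1 TPM. CCT has the highest list median (703 TPM) and the deglutamylases the lowest (0.358 TPM), and the folding cofactors spread from 4.65 to 890 TPM.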

How the data were processed

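The members and gene lists were chosen with earlier results of these data known. The authors deposited raw counts, CPM and RPKM per gene in each table, and GRCm38.p2, featureCounts 1.4.5 and Subread stand in the submitters' processing notes, with no roles. Per the file headers each gene has exon coordinates and a length. The deposited CPM and the deposited RPKM were recomputed from Count and Length as a check and not used further. TPM was computed from the deposited counts and lengths over all genes. Symbols were matched for 40254 genes.

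Library D was compared with B and C in edgeR 4.0.16 (quasi-likelihood, TMM, filterByExpr, Benjamini-Hochberg over all genes, threshold 0.05), tested on simulated data. DESeq2 1.42.0, other scalings, no filter, CPM without length and each library left out were alternatives. Transcript lengths and windows were added after seeing the data. The windows were searched among 141767 GENCODE M21 transcripts. Counts per pair of libraries differed by a chi-square of 133 to 318 per degree of freedom, so none was a duplicate. Named genes were all members, other tubulins, the 2 highest of each list and, where 5 or fewer, those under 1 TPM. Matcap1 was not matched. PCR copies of a molecule are counted as separate reads, so limits from counts cover counting error only. Some values and sequences are not reported here.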

Additional observations from a re-analysis of the deposited data

How the results depend on the processing

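Of 230 recomputed values, 196 were scored as unchanged, among them 62 of 80 shares, 62 of 70 levels and 66 of 71 ratios. Shares and levels were unchanged when within 1 SD of the main mean. Leaving out 1 of 3 libraries cannot move a mean that far, so those shares and levels were unchanged by construction. Pseudogene counts went to Tubb4b alone, so that setting hardly touched other genes. Log2 ratios were scored by sign only: Tubb2b to Tubb4b fell from 1.66 to 0.63 with own windows and counted as unchanged. The 71 include the number of ordered neighbour pairs, which is not a ratio. The ratio of alpha to beta sums reversed to 1.08 on the log2 scale with own 50-base windows as length, and ranged from −0.67 to −0.56 with each library left out. The share of Tuba1a was 96.9% by CPM without length, 96.9% with transcript lengths and 96.1% with own windows. The share of Tubb3 was 50.6% by CPM and 50.4% with own windows. The log2 ratio of Tubb2a to Tubb4a became −0.43 by CPM and ranged from −0.17 to 0.37 with a library left out, and that of Tubb4a to Tubb2b became −0.29 with own windows. The length used is by construction what changed in these CPM, transcript and window values. The number of tubulins called in library D was 3 without the filter and 1 by DESeq2, and the cause was not tested. With 1 library of B and C left out, 2 to 7 tubulins were past 2-fold lower in D, 7 of them without C. No test of D against a single library was run, since no residual degree of freedom remains. No paired analysis was possible because all libraries belong to 1 group.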

Other observations

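Tubulin pseudogenes with a name in the tables were low. Tubb4b-ps1 had 21, 13 and 28 counts and Tubb4b-ps2 10, 3 and 25 counts in libraries B, C and D, against 7783, 3771 and 4714 counts of Tubb4b. Gm5620, whose transcript shares 410 of the 50-base windows of Tuba1a, had 139, 66 and 144 counts, and Gm14150, which shares 522 of them, had 105, 26 and 116 counts. Adding the counts of Tubb4b-ps1 and Tubb4b-ps2 to Tubb4b left the log2 ratio of alpha to beta sums at −0.61. No such sum was made for pseudogenes of the alpha genes.

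The deposited length exceeded the GENCODE M21 coding transcript for Tubb4b (1.31 times), Tuba4a (1.30 times), Tubb5 (1.26 times) and Tuba1b (1.08 times), so their TPM is lower by the deposited length than by that transcript. With transcript lengths the mean of Tubb4b was 439 TPM and the share of Tubb5 in the beta sum was 25.2%.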
